A study of Mus musculus with 10 samples.

Results

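New C/EBPβ sites shared with GR are the C/EBPβ peaks of differentiating 3T3-L1 cells that were listed at 6 h, overlapped a peak of the glucocorticoid receptor (GR) at 6 h, and overlapped no C/EBPβ peak at 0 h. They were chosen by their presence and absence in 3 deposited peak lists, with 1 shared base counting as overlap, and 1650 of the 20746 C/EBPβ peaks at 6 h (7.95%) met the rule. They made up 61.0% of the C/EBPβ 6 h peaks shared with GR and 12.4% of those new at 6 h. They are called new shared sites below. 3T3-L1 is a mouse fibroblast line that can be turned into adipocytes in culture. Chromatin immunoprecipitation with sequencing (ChIP-seq) of C/EBPβ in undifferentiated cells (0 h) and 6 h after induction, of GR at 6 h, and of acetylated histone H3 lysine 9 (H3K9ac) at 0, 24 and 240 h gave 6 lists, each from 1 library. All groups share the same cell line with no genetic change given, and the labels describe the induction only as a standard protocol and name no agent. Peak lists hold no expression values, so the identity of the cells could not be checked against marker genes.

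C/EBPβ is a basic leucine zipper transcription factor that appears early in adipocyte differentiation, ahead of C/EBPα and PPARγ, the factors that maintain the adipocyte state. GR is a nuclear receptor that moves to DNA once it has bound a glucocorticoid, and a synthetic glucocorticoid is a usual part of adipogenic hormone mixtures. H3K9ac marks active promoters and enhancers. The H3K9ac lists leave out transcription start sites and keep only regions with more of the mark than at another time, per the labels.

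With 1 library for each factor and time, no value has a replicate error and no test across libraries can be made. Intervals are 95% intervals of counting error within these lists. They treat sites as independent, although some sites share a GR peak or an H3K9ac region, so they can be too narrow. A difference is called higher or lower only where its interval leaves out 0. Read totals are not in the lists, so depth is unknown, and a peak missing at 0 h is not shown to be unbound at 0 h. Positions are on mouse build mm8, as deposited.

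Because C/EBPβ and GR chose the sites, their peak values are a description. The authors' peak height, a whole-number read signal with a lowest listed value of 12, had a median of 21.5 for C/EBPβ at the new shared sites (quartiles 16 and 30, highest 91). New C/EBPβ sites without GR had a median height of 15. Sites already listed at 0 h had a median of 42 with GR and 22 without it. The new shared sites thus lay between the weak new sites and the strong older sites joined by GR. In the highest of 4 equal height classes of the whole C/EBPβ 6 h list stood 36.4% of the new shared sites, 10.7% of the new sites without GR and 83.5% of the older sites with GR. Their median width was 404 bp, against 281 bp for new sites without GR and 480 bp for older sites with GR.

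The order was the other way round for GR. Its peak height had a median of 18 at the new shared sites (quartiles 14 and 27) and 16 at older C/EBPβ sites (quartiles 13 and 21). The new shared sites held 1630 of the 4007 GR peaks (40.7%). Of these, 1596 met 1 such site and 34 met 2, and 14 new shared sites met 2 GR peaks. Also, 15 of the 1630 overlapped an older C/EBPβ site beside the new one. The centres of both peaks lay a median of 51.5 bp apart (quartiles 23 and 98 bp), and 76.4% lay within 100 bp. Older sites with GR had a median of 51 bp and 74.7% within 100 bp. In both classes the C/EBPβ centre lay inside the GR peak at most sites, with 94.5% of new and 93.2% of older ones.

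The heights of both factors were close to unrelated among the new shared sites. Spearman's rho was 0.027 over 1650 sites, and Pearson's r of the log2 heights was 0.06. At older sites with GR, rho was 0.15 over 1056 sites. These sites come from 1 library per factor and are not independent samples. Both lists leave out peaks under a height of 12, so the lowest values are missing on both axes.

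**Figure D1:**
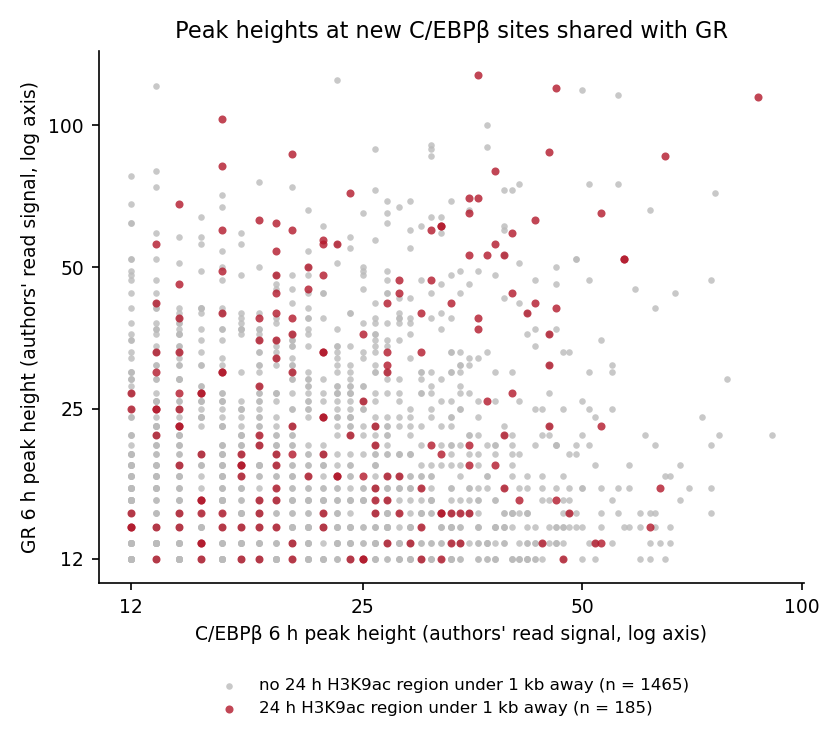
C/EBPβ 6 h peak height against GR 6 h peak height at the 1650 new shared sites, each point 1 site, both axes logarithmic and in the authors' read signal. The 185 sites with a 24 h H3K9ac region under 1 kb away (red) spread over the whole range of C/EBPβ height and are more frequent at high GR height.

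The 5 highest sites by C/EBPβ and the 5 highest by GR had none in common. Such short lists out of 1650 sites would seldom share a site if the heights were unrelated. By C/EBPβ height the highest was chr6:114652670-114653041, with a C/EBPβ height of 91, a fold enrichment of 30.38 and a GR height of 22. It ranked 12th among all C/EBPβ 6 h peaks, and its GR peak ranked 1096th among all GR peaks. The next was chr5:66851606-66851962, with a C/EBPβ height of 87 and a GR height of 115. This was the one site among the 5 highest by C/EBPβ that had a GR peak of the top 10, with rank 8, and the one near a 24 h H3K9ac region. The third to the fifth lay on chromosome 6. At chr6:115387237-115387862 the C/EBPβ height was 79 and the GR height 29. At chr6:90346980-90347564 they were 77 and 22. At chr6:17228407-17228890 they were 76 and 72.

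By GR height the highest site was chr19:21665799-21666269, with a GR height of 128, which was the highest of the whole GR list, and a C/EBPβ height of 36. It overlapped a 24 h H3K9ac region of 1750 bp, whose average read count of 8 was below the 24 h list's lower quartile of 9. The peak centres of both factors lay 0.5 bp apart. At chr17:28147683-28148148 the GR height was 125 and the C/EBPβ height 23, and the nearest 24 h region was 7.20 kb away. At chr8:13620259-13620530 the GR height was 121 against a C/EBPβ height of 13, close to the lowest listed value, and a C/EBPβ 0 h peak lay 0.102 kb away. At chr17:3174968-3175389 the GR height was 120 and the C/EBPβ height 46, and at chr19:27324777-27325426 they were 119 and 50. These GR peaks were the 5 highest of the GR list. The one on chromosome 8 also overlapped an older C/EBPβ site, chr8:13620546-13621102, whose C/EBPβ height of 67 was above that of the new one.

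**Figure D2:**
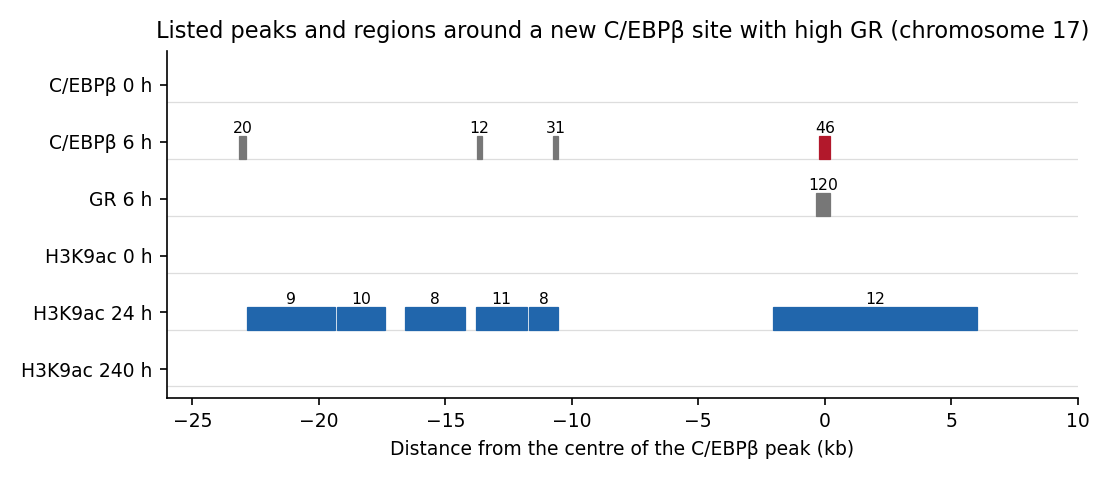
Listed C/EBPβ and GR peaks and H3K9ac regions around the new shared site at chr17:3174968-3175389 (red), by distance from its centre in kb; numbers are the authors' peak height or average read count. The site lies inside a 24 h region with an average read count of 12, and no C/EBPβ 0 h peak and no 0 h or 240 h H3K9ac region is listed in the stretch shown.

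Acetylation was not used to choose the sites. A 24 h H3K9ac region lay under 1 kb from 185 of the 1650 new shared sites (11.2%, 9.78 to 12.8%), where 3.11% of all C/EBPβ 6 h peaks had one. The share near a 0 h region was 3.15% (52 sites, 2.41 to 4.11%), against 5.68% of all C/EBPβ 6 h peaks. Near a 240 h region it was 4.48% (74 sites, 3.59 to 5.59%), against 4.98% of all. No new shared site lay near regions of more than 1 of the 3 lists, and 1339 (81.2%) lay near none. The regions of different H3K9ac lists do not overlap, which by itself limits how often a site lies near more than 1 list. It does not exclude this, since a gap under 1 kb to regions of more than 1 list is possible.

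**Figure D3:**
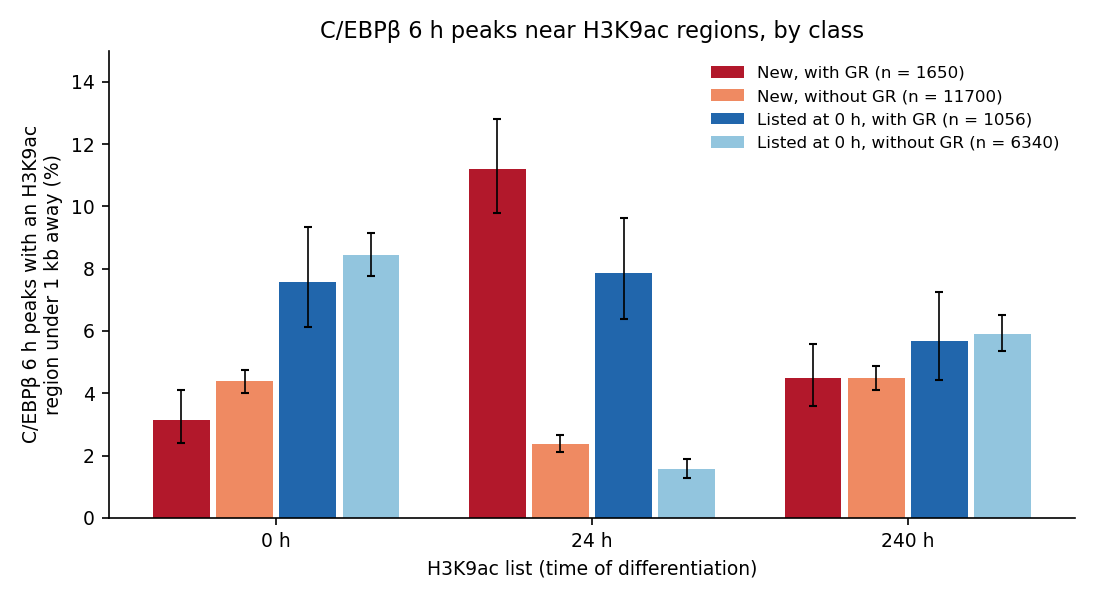
Share of C/EBPβ 6 h peaks with an H3K9ac region under 1 kb away, for each H3K9ac list and each of 4 classes by presence at 0 h and by GR; bars are percent and whiskers 95% Wilson intervals. New sites with GR reach 11.2% at 24 h and 3.15% and 4.48% at 0 and 240 h.

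Stronger peaks more often carry GR, so new sites with and without GR were compared with C/EBPβ height held in 4 classes. The excess near 24 h regions was there in every height class. In the lowest class 7.49% of the new shared sites (20 of 267) and 1.97% of the new sites without GR had a 24 h region. In the highest class these were 13.0% (78 of 600) and 4.07%. Over the classes, weighted as the new shared sites fall into them, the new shared sites stood 8.24 points higher (6.65 to 9.82), a ratio of 3.77. The difference ranged from 6.69 to 12.5 points over all alternatives. Near 0 h regions the new shared sites stood 1.09 points lower (-2.06 to -0.125), which several settings moved to within counting error. Near 240 h regions the difference was -0.428 points (-1.56 to 0.703).

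New shared sites were then compared with older C/EBPβ sites with GR. C/EBPβ height was held in 4 classes, and GR height only as above or not above the GR list's median of 16. The upper quartile of GR height was 27 at new shared and 21 at older sites, so GR height was held only in part. With heights held in this way, the new shared sites were less often near a 0 h region, with a difference of -6.68 points (-11.7 to -1.69). Without holding height the shares were 3.15% and 7.58%. Near 24 h regions the new shared sites had 3.35 points more (-1.27 to 7.97). Without holding height the shares were 11.2% and 7.86%, and the interval of their difference, 1.07 to 5.54 points, left out 0. The interval with heights held rests on height strata with few older sites, since 13 of the 1056 fell in the lowest C/EBPβ class. With strata of 20 or more older sites alone it was 4.59 points (1.60 to 7.58), and at 0 h -4.55 points (-7.24 to -1.85). Near 240 h regions the difference was -2.34 points (-6.91 to 2.23).

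Distance showed how local the 24 h excess was. Direct overlap with a 24 h region was found at 8.79% of the new shared sites and 1.65% of the new sites without GR. With a gap under 10 kb the shares were 19.3% and 6.50%, and under 100 kb 39.4% and 23.8%. Among sites with no 24 h region within 50 kb, 10.5% of the new shared sites (8.81 to 12.4%) and 9.34% of the new sites without GR (8.78 to 9.93%) had one between 50 and 100 kb. The additional sites at 20 to 50 kb still differed, with 10.8% (9.18 to 12.6%) and 7.19% (6.71 to 7.70%) of the sites beyond 20 kb. The median gap to the nearest 24 h region was 233 kb for new shared sites, 453 kb for new sites without GR and 211 kb for older sites with GR. To the nearest 240 h region these medians were 146, 177 and 123 kb.

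**Figure D4:**
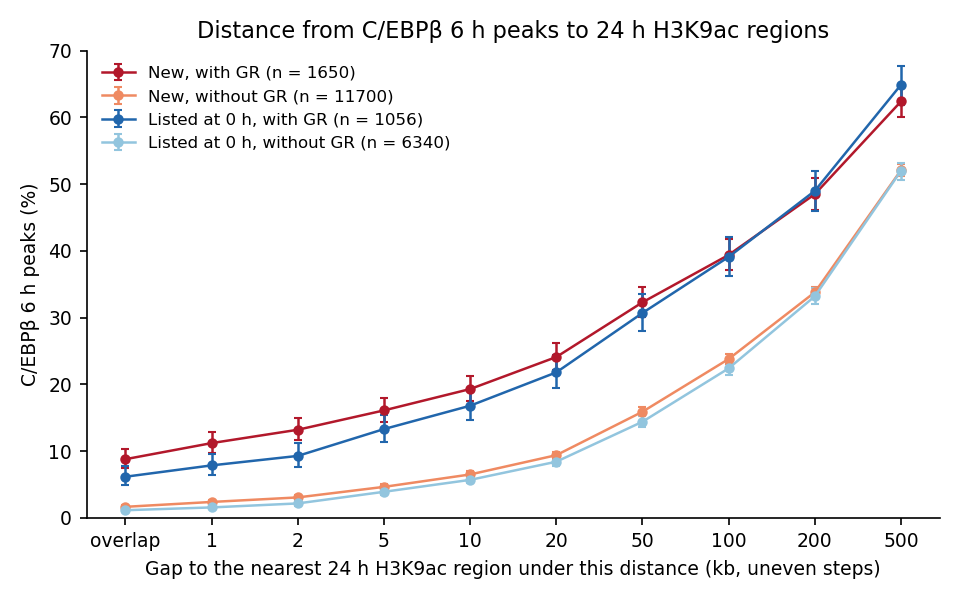
Share of C/EBPβ 6 h peaks whose gap to the nearest 24 h H3K9ac region is under each distance, by class; the steps on the horizontal axis are uneven and whiskers are 95% Wilson intervals. Both classes with GR lie above both without it at each distance, with 8.79% of new sites with GR and 1.65% of those without in direct overlap.

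Among the new shared sites themselves, the share with a 24 h region differed more by GR height than by C/EBPβ height. These differences were not tested against each other, and their intervals overlap. Divided into 4 equal classes by GR height, 6.30% of the lowest (heights 12 to 14), 8.98%, 9.44% and 20.1% of the highest class (27 to 128) had a 24 h region. The highest exceeded the lowest class by 13.9 points (9.32 to 18.4). The step lay between the third and the highest class. The median C/EBPβ height was 21, 22, 20 and 22 in these classes, so C/EBPβ height did not rise with them. Divided by C/EBPβ height, the shares were 9.20%, 10.9%, 10.4% and 14.3%, a difference of 5.12 points between the end classes (0.714 to 9.55). That difference was 2.22 points (-7.09 to 11.5) with the stronger peaks of both lists alone.

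Sites were then split at the middle by both heights together. With GR above its middle, 16.7% of sites with C/EBPβ above its middle and 13.0% of those below had a 24 h region. With GR below its middle these were 8.27% and 6.97%. Sites with high and low GR differed by 8.39 points (3.90 to 13.0) at high and by 6.04 points (1.94 to 10.2) at low C/EBPβ. Sites with high and low C/EBPβ differed by 3.66 points (-1.19 to 8.55) at high and 1.31 points (-2.38 to 4.99) at low GR.

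The other H3K9ac lists did not share this direction. From the lowest to the highest GR class, the share near 240 h regions went from 5.81% to 2.67%, a difference of -3.14 points (-6.08 to -0.365). Near 0 h regions it went from 3.63% to 1.70% (-1.93 points, -4.37 to 0.332). By C/EBPβ height the share near 240 h regions was instead higher in the highest class, with 6.80% against 3.15% (3.65 points, 0.667 to 6.78). Thus, among the new shared sites, 240 h regions were more frequent with high C/EBPβ and less frequent with high GR. At older sites with GR the 240 h share was 5.30% in their highest and 3.03% in their lowest GR class (2.27 points, -1.27 to 5.98). For GR peaks with no C/EBPβ peak at 6 h these were 3.89% and 2.99% (0.907 points, -2.0 to 3.89). By C/EBPβ height, older sites with GR had a 240 h share of 6.82% in their highest and 4.55% in their lowest class (2.27 points, -1.79 to 6.44). New sites without GR were not divided in this way at 240 h. Whether the sets differed in these steps at 240 h was not tested. The divisions at 0 and 240 h were made after the data had been examined.

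**Figure D5:**
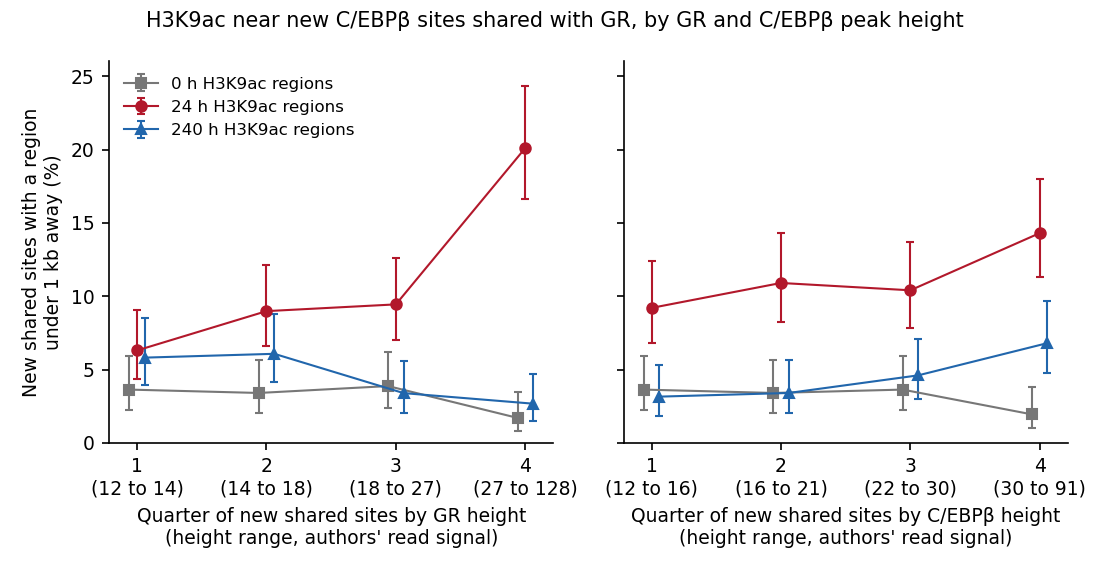
Share of new shared sites with an H3K9ac region under 1 kb away in 4 equal classes by GR height (left) and by C/EBPβ height (right), for the 0, 24 and 240 h lists; points are percent of about 412 sites and whiskers 95% Wilson intervals. The 24 h share reaches 20.1% in the highest GR class, and the 240 h share is 2.67% there and 6.80% in the highest C/EBPβ class.

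Older sites with GR showed a like dependence on GR height, with 15.9% near 24 h regions in their highest and 4.55% in their lowest GR class, 11.4 points apart (6.29 to 16.6). The new shared sites differed from them by 2.49 points in this step (-4.46 to 9.33). Each set was divided into its own equal classes, so the limits were unlike. The highest class began at 27 for new shared and 21 for older sites, and the lowest ended at 14 and 13. GR peaks with no C/EBPβ peak at 6 h were then compared by the height classes of the whole GR list. In the highest class (heights 24 to 128) 17.2% of the GR peaks on new shared sites and 11.2% of those without C/EBPβ had a 24 h region, where 8.61% of all GR peaks did. They differed by 6.02 points (0.836 to 10.7). In the lowest class (12 to 13) the shares were 6.38% and 7.00%. At heights 13 to 16 they were 8.88% and 2.25%, and at 16 to 24 they were 9.39% and 5.46%. The step from the lowest to the highest class was 10.8 points on new shared sites (6.43 to 14.9). Without C/EBPβ it was 4.15 points (-0.316 to 8.93), and these steps differed by 6.64 points (0.170 to 12.7). Without C/EBPβ the lowest class stood above the middle classes, and the difference of the steps depends on it. It therefore does not show a weaker rise with GR height without C/EBPβ. With GR height held over all classes, GR peaks on new shared sites were 4.32 points more often near a 24 h region (2.21 to 6.43).

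The 24 h regions near new shared sites numbered 188, or 11.5% of the 1629 in that list, of which 170 had 1 such site and 18 had 2. The authors' average read count was above 10, the upper quartile of the list, in 30.9% of them (58 of 188). It was above 10 in 22.8% of the 381 regions near other C/EBPβ 6 h peaks alone, in 15.3% of the 1060 near no C/EBPβ 6 h peak and in 18.8% of all. The first 2 shares differed by 8.02 points (0.400 to 16.0), but by 3.60 points (-4.01 to 11.8) when new sites had to lie 1 kb or more from a 0 h peak. Widths above the list median of 1300 bp were found in 68.6% and 61.2% of these regions, against 48.6% of all, a difference of 7.46 points (-0.961 to 15.4).

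Of the 5 new shared sites at the 24 h regions of highest read count, the first was chr2:160496596-160497075. Its C/EBPβ height was 43 and its GR height 63, and the region around it (5950 bp) had the list's highest average read count, 18. Next came a pair in 1 region of 4000 bp with a read count of 17. At chr19:17015924-17016467 GR was high and C/EBPβ low, with heights of 103 and 16. Its neighbour chr19:17016485-17016874 had the reverse order, with a GR height of 15 and a C/EBPβ height of 32. Both lay within 1 kb of a C/EBPβ 0 h peak, at gaps of 0.800 and 0.393 kb. The fourth, chr14:46864495-46865090, had a C/EBPβ height of 65, a GR height of 86 and a read count of 16 in its region. The fifth, chr1:40054266-40054765, had heights of 30 and 33 and lay 0.216 kb outside a region with a read count of 16. A further new shared site, chr1:40053046-40053349, lay inside that region with lower heights, 15 for C/EBPβ and 13 for GR. By the rule all 5 were listed at 6 h for both factors. None lay near a 0 h or a 240 h region, which held for every new shared site near a 24 h region.

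Many new shared sites had other sites close by. The C/EBPβ and GR lists that chose the sites also gave these neighbour counts, so differences in them are a description. Sites that met the same GR peak, as at 34 GR peaks with 2 such sites, are neighbours by that overlap. Their part in the differences was not tested. Another new C/EBPβ 6 h peak lay within 10 kb of 824 of them (49.9%), against 37.2% of all new C/EBPβ peaks. With C/EBPβ height held, this was 13.4 points more often than for new sites without GR (10.7 to 16.1). A C/EBPβ 0 h peak lay within 10 kb of 28.2% (465 sites), against 24.9% of all new peaks, a difference of 3.38 points from new sites without GR (0.970 to 5.79). The difference was 2.26 points (-1.67 to 6.20) with the stronger peaks alone. Sites with another new shared site within 10 kb (270) had a 24 h region in 19.3% of cases, and the other 1380 in 9.64%, a difference of 9.62 points (5.05 to 14.9). With GR height held in 4 classes it was 9.03 points (4.08 to 14.0). Such neighbours can lie near the same region, so they are not independent of each other. With another GR peak within 10 kb the shares were 15.9% and 9.64%, a difference of 6.22 points (2.57 to 10.3). It was 5.58 points (1.69 to 9.47) with GR height held. With any other C/EBPβ 6 h peak within 10 kb the difference was 3.79 points (0.69 to 6.74). With a C/EBPβ 0 h peak it was -2.74 points (-5.77 to 0.706).

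Windows of 100 kb held at most 4 new shared sites. A single site stood in 1070 windows, which together held 64.8% of all, and 13 windows held 4. The first 3 of these by position were chr2:124900000-125000000, with 14 C/EBPβ 6 h and 3 GR peaks, chr6:17200000-17300000, with 13 and 6, and chr6:71900000-72000000, with 9 and 7. None of the sites in these 3 windows lay under 1 kb from a 24 h region. Over all 13 windows 3 of 52 sites in 2 windows did, against 185 of all 1650 new shared sites (11.2%). In the chr2:124900000-125000000 window the C/EBPβ heights were 12, 45, 28 and 18 and the GR heights 13, 13, 13 and 16. In the chr6:17200000-17300000 window the C/EBPβ heights were 24, 76, 12 and 14 and the GR heights 23, 72, 22 and 12. In the chr6:71900000-72000000 window the C/EBPβ heights were 51, 20, 17 and 26 and the GR heights 47, 14, 12 and 15. The site with the highest C/EBPβ peak also had the highest GR peak in both windows on chromosome 6 and not in the one on chromosome 2.

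At the edges of the rule, the site that shared fewest bases with GR was chr10:95618346-95618829, with 3 bases, a C/EBPβ height of 17 and a GR height of 17. Next to it came sites with 9 and 12 shared bases, at chr8:10672424-10672586 and chr13:32508658-32508953. Just outside lay chr2:44044676-44044969, which touched a GR peak of height 32 without sharing a base, and 2 peaks with gaps of 2 and 4 bases. The site closest to a 0 h peak was chr2:50512182-50512525, 17 bases from a 0 h peak of height 72, with a C/EBPβ height of 22 and a GR height of 48. The next 2 had gaps of 40 and 42 bases, and the closest sites outside shared 1, 5 and 8 bases with a 0 h peak. In all, 11 new shared sites shared 50 or fewer bases with GR, and 98 lay under 1 kb from a C/EBPβ 0 h peak.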

How the data were processed

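Per the labels' protocols, ELAND placed 36 bp reads on mm8, allowing 2 mismatches, and unique placements were kept once per start coordinate. This caps strong peaks and leaves repeats uncovered. The peak caller, its thresholds, its use of input and any scaling were not given in the sources used here. The authors' deposited factor lists give fold enrichment (a ratio) and peak height (a read signal). Their deposited H3K9ac lists give average read count (a read signal) and a false discovery rate, used here as a q-value for ties alone. The 4 input libraries were not analysed here.

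Overlaps were computed in Python 3.11.15 with numpy 2.4.6 and pandas 2.3.3, shares with statsmodels 0.14.6 (Wilson; Newcombe for differences), and the code was tested on simulated data. Differences with height held weight each class by the new shared sites and sum binomial variances. Height classes are 4 equal parts of the whole list, with ties ordered by fold enrichment, then list order. Where new shared sites, older sites with GR or GR peaks without C/EBPβ were divided among themselves, the classes are 4 equal parts of that set. Named sites are the 5 highest by C/EBPβ, by GR and by read count of the 24 h region, the first 3 by position of the 13 windows that tied for most sites, and the 3 closest to each edge of the rule. Sites, lists and tests were chosen with earlier results of these data known. The comparison with GR peaks lacking C/EBPβ, the splits at the middle, the neighbours within 10 kb by acetylation and the distance steps were added after the data had been examined. A planned motif search needs mm8 sequence and was not run.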

Additional observations from a re-analysis of the deposited data

How the results depend on the processing

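Over 110 recomputed differences, 90 kept their direction and their side of 0, 9 lost their call, 8 gained one and 3 turned. The call near 24 h regions against new sites without GR held under each alternative run. All values below are in points. Near 24 h regions against older sites with GR, a call was gained with overlap of 0.5 of the shorter peak (5.68), centres within 1 kb (3.09), 10 height classes (4.57), height not held (3.35) and strata of 20 or more (4.59, added after the data were examined). Near 0 h regions against new sites without GR, it was lost with 0.5 overlap (-0.965), centres within 1 kb (-0.664), no 0 h peak within 1 kb (-0.879), direct overlap with the region (-0.548) and a gap under 10 kb (-1.33). Near 240 h regions the difference from new sites without GR turned with a gap under 10 kb (0.27) and with height not held (0.00622), and that from older sites with GR with centres within 1 kb (0.0983). With stronger C/EBPβ and GR peaks alone both gained a call (-3.37 and -4.16), where sites without GR include those with weaker GR peaks. The same setting lost the call for C/EBPβ height classes (2.22) and for 0 h neighbours (2.26). The read count of 24 h regions lost its call with centres within 1 kb (4.04) and with no 0 h peak within 1 kb (3.60), and their width gained one with a gap under 10 kb (13.8). The cause of these changes was not tested. No paired analysis was possible because each group is 1 library. Unknown depth limits every statement on peaks missing from a list.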

Other observations

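New shared sites were spread over all chromosomes in unequal shares of the C/EBPβ 6 h peaks. The share was 10.1% on chromosome 19 (92 of 911 peaks, 8.31 to 12.2%) and 9.96% on chromosome 6 (201 of 2019, 8.72 to 11.3%). It was 5.62% on chromosome 18 (36 of 641, 4.08 to 7.68%) and 6.05% on chromosome 11 (59 of 975, 4.72 to 7.73%). These chromosomes were picked after the values were seen.

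Where a 24 h region lay near a new shared site, the other H3K9ac lists were also thinner at a wider distance. A 240 h region lay within 10 kb of 8 of these 185 sites (4.32%) and of 203 of the other 1465 (13.9%), a difference of -9.53 points (-12.4 to -5.22). For 0 h regions the shares were 4.86% and 9.62%, a difference of -4.76 points (-7.56 to -0.405). A 24 h region cannot share bases with a region of another list here, which takes up part of the 10 kb, and its part in these differences was not tested.

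Within 24 h regions the new shared sites had no marked place. Of 124 pairs of a site and a region with the site's centre inside the region, 66 (53.2%, 44.5 to 61.8%) had it closer to the middle of the region than to its edge. For new sites without GR this was 98 of 164 (59.8%, 52.1 to 67.0%), and the classes differed by -6.53 points (-17.9 to 4.94).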
